A study of Mus musculus with 7 samples.

Results

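The mitosis and DNA replication genes followed here are a list of 40 genes that dividing cells express, given by symbol. A row of the array table stood for a gene when its platform annotation gave that symbol alone, and the row with the highest mean log2 intensity was taken, with no filter on level. Of the 40 genes, 39 were measured in this way, out of 19938 genes in all, and no row bore the symbol Ccnb1 alone. They comprise 26 measured genes of G2 and mitosis, 11 genes of S phase, and the G1 cyclins Ccnd1 and Ccne1. Left plantaris, a calf muscle used in plantar flexion, was taken from C57BL/6J males, 5 months of age, as it regrew following 2 weeks of hind limb suspension, in which the hind limbs bear no weight. The groups are d1, d3, d5, d7, d10 and d14 after suspension and d0, its end, which the labels name as the control. All animals had been suspended, so there is no group of muscle that was never unloaded. The RNA of 6 animals was pooled for the single array of each day, so no difference between days carries an error, and precision is limited by having 7 arrays. Levels are given as the deposited linear intensities and differences on the log2 scale. Where 7 intensities of a gene follow one another, they stand in the order d0, d1, d3, d5, d7, d10, d14.

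A cell that divides copies its DNA in S phase and separates the copies in mitosis. Cyclin D1 and cyclin E drive entry into S phase, where the MCM helicase unwinds DNA, the clamp PCNA holds the polymerases and ribonucleotide reductase supplies nucleotides. In G2 and mitosis, cyclins A and B with CDK1, and the Polo and Aurora kinases, drive chromosome condensation, spindle assembly and the division of the cell. Transcription follows this order: E2F factors act on S phase genes, and complexes that bind the CHR element of a promoter act on genes of G2 and mitosis. Muscle fibres do not divide. Dividing cells of a muscle include satellite cells, fibroblasts, endothelial cells and leukocytes, and precursors of blood cells divide in marrow.

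The 10 markers of skeletal muscle fibres that were looked at, such as Tnni2 and Ckm, summed to 146093 (d3) to 157065 (d0) intensity units. All 10 lay above the array median. The array median lay between 128.1 and 131.8. By Spearman's rho over all rows, the d0 array had a mean of 0.972 with the other 6 arrays, against 0.984 to 0.989 for those, so values against neighbouring days are given beside those against d0. With 1 array at d0, a feature of that array and the state of suspended muscle cannot be told apart.

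The median log2 ratio to d0 of the mitosis genes was highest at d3 (0.38) and d10 (0.37), and that of the S phase genes at d1 (0.29). In 13 of the 26 mitosis genes, the d3 and d10 values both lay above those of the other 5 arrays, as they did in 2.67% of all genes. This course was known from earlier results of these data, so its counts describe the genes and are no test. None of the 11 S phase genes had this course, and Ccne1 was the only G1 cyclin that did. In 8 of the 11 S phase genes d1 was the highest of the 7 arrays, against 19.4% of all genes, and the same held for 2 of the 26 mitosis genes and for Ccnd1. Of the 11351 genes with a mean level at or above the median of all rows, d1 was highest in 3335. It was so in 5 of the 7 S phase genes at that level. With each array other than d3 and d10 left out in turn, the count of 14 members with d3 and d10 on top ranged from 14 to 18. It was 15 without d0 (2.91% of all genes) and 18 without d1. Leaving out such an array can raise this count but cannot lower it. Fewer dividing cells and less RNA per cell cannot be told apart in such pools.

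**Figure D1:**
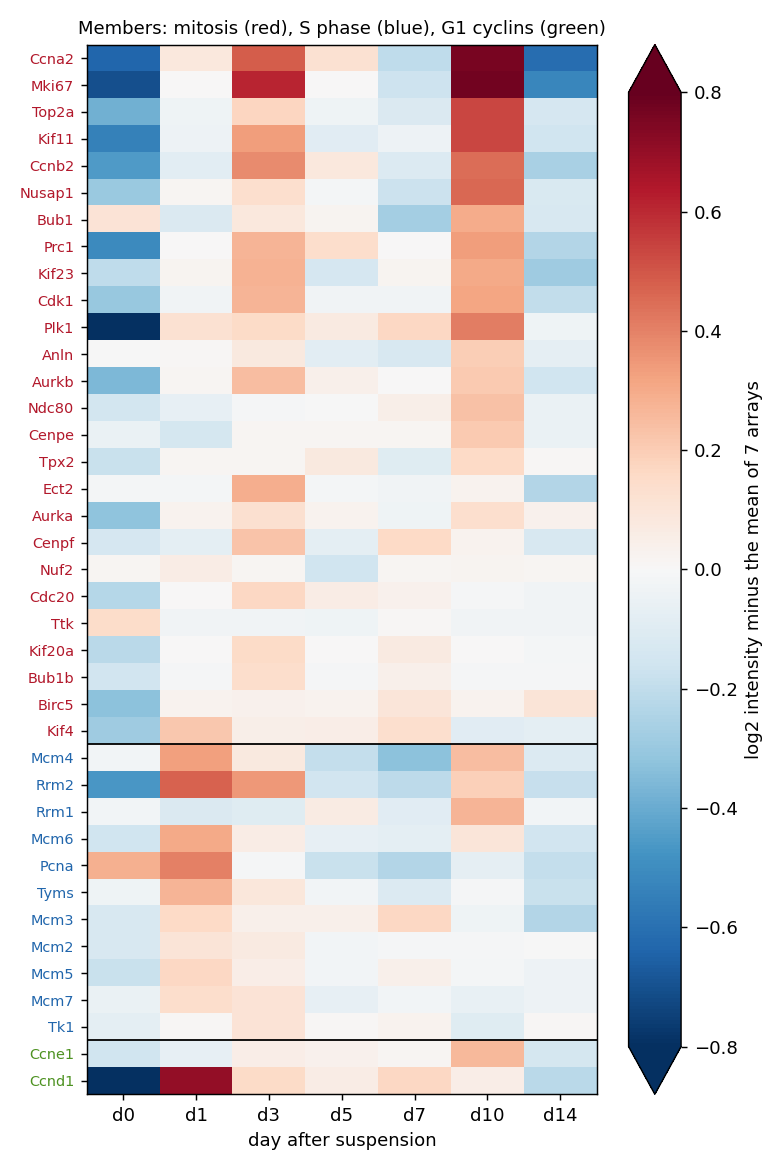
Each line is 1 member and each column 1 array; colour is the log2 intensity minus the gene's mean over the 7 arrays, and values beyond 0.8 either way take the end colour. Within each class genes are ordered by d10 minus the mean of d7 and d14: the upper mitosis genes are red at d3 and d10, and most S phase genes are reddest at d1.

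The promoters of the 2 classes differ in how many hold CHR and E2F letters. As examples 5 are shown, of genes that follow the 2 courses and hold such letters. RefSeq promoters of build GRCm38.p6, from 250 bases before to 50 bases after the start, were found for 34 of the 40 genes by symbol. Mcm4, Aurkb, Ccnd1, Ccna2, Tpx2 and Kif20a had no entry. Capitals mark the CHR element (TTTGAA or TTCGAA), the CCAAT box (CCAAT) and E2F letters (TTTCCCGC, TTTGGCGC, TTTCGCGC or TTTGCCGC), each on either strand, and adjoining capitals in Mcm5 and Mcm6 are overlapping E2F matches on the 2 strands.
Mki67, chr7:135716330-135716629, strand -: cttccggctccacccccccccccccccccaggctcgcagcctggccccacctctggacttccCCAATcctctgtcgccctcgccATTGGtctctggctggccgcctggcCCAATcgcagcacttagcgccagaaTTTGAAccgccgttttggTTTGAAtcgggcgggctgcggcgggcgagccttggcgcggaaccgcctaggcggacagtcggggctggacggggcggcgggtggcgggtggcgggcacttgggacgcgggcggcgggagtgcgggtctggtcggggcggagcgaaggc
Ccnb2, chr9:70421505-70421804, strand -: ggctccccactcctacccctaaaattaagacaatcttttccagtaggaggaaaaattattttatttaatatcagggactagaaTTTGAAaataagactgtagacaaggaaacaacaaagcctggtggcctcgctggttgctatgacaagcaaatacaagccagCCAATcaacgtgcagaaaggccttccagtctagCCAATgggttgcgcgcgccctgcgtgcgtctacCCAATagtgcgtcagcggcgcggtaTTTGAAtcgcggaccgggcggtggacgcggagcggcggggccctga
Kif11, chr19:37376132-37376431, strand +: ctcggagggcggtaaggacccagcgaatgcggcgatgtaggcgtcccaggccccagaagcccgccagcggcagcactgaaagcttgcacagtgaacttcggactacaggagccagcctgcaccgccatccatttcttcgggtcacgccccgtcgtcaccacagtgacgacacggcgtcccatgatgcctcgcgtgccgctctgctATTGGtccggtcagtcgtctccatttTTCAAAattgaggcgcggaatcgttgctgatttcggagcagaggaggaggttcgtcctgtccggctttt
Mcm5, chr8:75109259-75109558, strand +: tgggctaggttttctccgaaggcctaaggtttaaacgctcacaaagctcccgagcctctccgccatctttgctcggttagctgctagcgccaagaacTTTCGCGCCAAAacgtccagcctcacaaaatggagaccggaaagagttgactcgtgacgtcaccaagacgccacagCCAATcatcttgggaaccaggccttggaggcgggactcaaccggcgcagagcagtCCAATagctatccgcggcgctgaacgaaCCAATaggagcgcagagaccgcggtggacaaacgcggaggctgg
Mcm6, chr1:128359656-128359955, strand -: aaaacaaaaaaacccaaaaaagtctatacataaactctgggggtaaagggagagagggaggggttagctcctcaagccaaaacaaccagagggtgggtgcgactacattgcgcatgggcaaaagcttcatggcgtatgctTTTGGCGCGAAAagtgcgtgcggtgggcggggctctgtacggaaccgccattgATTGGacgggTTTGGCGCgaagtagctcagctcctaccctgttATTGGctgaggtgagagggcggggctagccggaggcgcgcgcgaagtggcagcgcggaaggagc
The first 3 belong to mitosis genes and hold CHR letters and CCAAT boxes, and the last 2 belong to S phase genes and hold E2F letters and CCAAT boxes. In Ccnb2 a CHR match starts at base 5 after the start and a CCAAT box at base -21. The CHR match of Kif11 starts at base -19 and its CCAAT box at base -45.

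CHR letters were found in 18 of 23 mitosis genes with a promoter (78.3%), in 2 of 10 S phase genes (Mcm2 and Mcm7) and in 21.7% of all genes with a promoter (19.2% of all 32851 promoters). A match started within 50 bases of the start in 17 of the 23 mitosis genes, and in 5.31% of all promoters, a share counted by promoter and not by gene. Among the 18 with CHR letters, only Mki67 had no match there, with matches starting at bases -116 and -98. E2F letters were in 1 mitosis gene (Cdk1), in 4 S phase genes (Mcm3, Mcm5, Mcm6 and Mcm7) and in 2.60% of all genes. Mcm2, Pcna, Rrm2 and Tyms, which were also highest at d1, held no E2F letters, and Mcm3 was highest at d7. CCAAT boxes were found in 18 of 23 mitosis and 8 of 10 S phase genes, against 41.1% of all genes. Of the mitosis genes with d3 and d10 on top that have a promoter, 10 of 11 held CHR letters, all but Nusap1, and so did 8 of the other 11 measured ones. Such a match is a description of the letters, not of a bound site.

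Among the mitotic cyclins and kinases, Ccna2, Ccnb2 and Cdk1 had clear d3 and d10 values. Ccna2, cyclin A2 of S phase and G2, had intensities of 90.3, 149, 196, 153, 122, 237 and 92.0. The d10 value was 2.24-fold that of d7 and d14 (log2 1.17), and the d3 value was higher than d1 and d5 by 0.38 on the log2 scale. At d14 Ccna2 stood within 0.03 of d0. Ccnb2, cyclin B2, had 143, 184, 254, 207, 181, 266 and 163, with log2 differences from the neighbouring days of 0.38 at d3 and 0.63 at d10. Cdk1, the kinase that cyclins A and B activate, had 85.8, 104, 128, 104, 104, 132 and 92.5. Its values at d1, d5 and d7 were equal at 103.9, and the d3 and d10 values lay above these.

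The other kinases differed less at d3 and d10, or had another course. Plk1, the Polo kinase of spindle assembly, had 63.7, 128, 130.5, 123, 132, 156 and 115. Its d0 value was low against all later days (log2 0.85 to 1.29), and d3 differed from d1 and d5 by 0.05 only. Aurkb, the Aurora kinase of the chromosomal passenger complex, had 118, 153, 180.1, 156, 152, 175 and 136, so that d3 and d10 lay above the rest. Aurka, of the spindle poles, ranged from 219 to 246 on the 6 later days, also with d3 and d10 highest.

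Among the spindle checkpoint kinases, Bub1 had 49.5, 42.4, 48.7, 46.6, 38.0, 56.4 and 42.0, so that d10 was highest and d0 came next. Its relative Bub1b stood at 67.0 on 4 arrays and at 74.2 at d3. Ttk, the kinase Mps1, had 42.4, 37.6, 37.6, 37.4, 38.6, 37.6 and 37.6, and was lower than d0 on all later days.

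**Figure D2:**
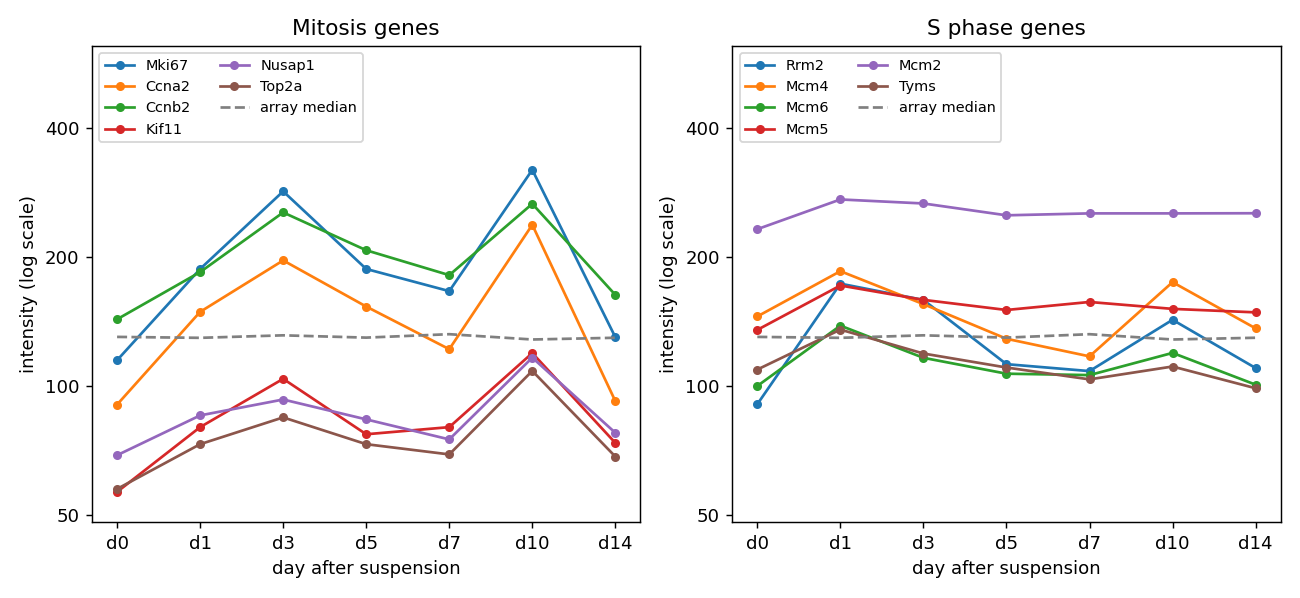
Intensity (log scale) of 6 mitosis genes, left, and 6 S phase genes, right, on each array, with the array median dashed. The mitosis genes shown are the 6 at least 1.5-fold above d7 and d14 at d10, and have 2 maxima, at d3 and d10. The S phase genes shown are highest at d1, with d10 above d7 and d14 in Mcm4, Rrm2, Mcm6 and Tyms. Not shown are Rrm1, Tk1 and Mcm3, highest at d10, d3 and d7, so the panels do not stand for each whole class.

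Of the 4 genes of chromosome structure and mitotic exit, Mki67 and Top2a followed the same course. Mki67, which coats mitotic chromosomes and is the usual histological mark of proliferation, had 115, 187, 284, 187, 166, 319 and 129.7. It was 2.17-fold higher at d10 than at d7 and d14 and 1.52-fold higher at d3 than at d1 and d5. Top2a, the topoisomerase that untangles sister chromatids, had 57.4, 73.0, 84.3, 73.0, 69.1, 108 and 68.3. Its other row held 9.5 to 16.2 and did not follow this course: it was lower than d1 and d5 at d3 (-0.54) and higher than d7 and d14 at d10 (0.41). With the rows of a gene averaged, 13 members in place of 14 had d3 and d10 on top, and 5 in place of 6 were at least 1.5-fold above d7 and d14 at d10. Birc5, survivin, which belongs to the passenger complex, was between 70.9 and 74.7 on all later days against 55.4 at d0, with no maximum at d3 or d10. Cdc20, the activator of the anaphase-promoting complex, was highest at d3 (131) and stood at 116 at d10, against 119.7 at d7.

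Of the 9 spindle and cytokinesis genes, 6 had d3 and d10 on top. Kif11, the motor that pushes spindle poles apart, had 56.5, 80.0, 104, 77.0, 80.0, 119 and 73.5. Nusap1, a microtubule binding protein of the spindle, had 68.8, 85.2, 92.8, 83.4, 74.9, 116 and 77.6, and its log2 difference at d10 (0.61) was larger than that at d3 (0.14). Prc1, which bundles midzone microtubules, differed from its neighbours by 0.20 at d3 and 0.45 at d10, and Kif23, a midzone motor, by 0.34 and 0.44. Anln, the anillin of the contractile ring, differed by 0.11 and 0.30. Ect2, the exchange factor that activates RhoA at the ring, was higher at d3 (110.3) than at d10 (91.8), and d10 barely exceeded the 89.0 of d0, d1 and d5. Tpx2, an activator of Aurora A, was highest at d10 (90.3), and Kif20a at d3 (78.7). Kif4, a chromosome arm motor, was highest at d1 (30.9) and lowest at d0 (21.8).

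The 4 kinetochore genes lay under the array median and differed little between days. Cenpe, a motor that links kinetochores to microtubules, lay between 36.3 and 46.2. Ndc80 and Nuf2, partners in the complex that grips microtubules, lay between 54.5 and 70.9 and between 47.0 and 54.8. Cenpf, a large kinetochore protein, was highest at d3 (70.1), against 56.8 at d1 and d5, and stood at 61.1 at d10. Cenpe and Ndc80 were highest at d10. None of the 4 had both d3 and d10 on top.

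All 6 MCM genes, the subunits of the replicative helicase, were higher at d1 than at d0, by 0.19 (Mcm7) to 0.47 (Mcm6), with a median of 0.32 against 0.04 over all genes. Mcm2 had 232, 272, 266, 249.6, 252, 252 and 252, so all later days lay above d0 and d1 was highest. Mcm4 had 145, 185, 155, 129, 117, 174 and 136. It was high at d1 and d10 with a low at d7, and its difference at d10 from d7 and d14 (0.47) was the largest among the 11 S phase genes. Mcm5 had 135, 171, 158, 150.1, 157, 151 and 148. Mcm6 had 99.8, 138, 116, 107, 106, 119 and 100.5, and the d10 value came next after d1. Mcm3 was at 101 at d1 and 101 at d7. At d3 the 6 genes differed from the mean of d1 and d5 by no more than 0.07 either way.

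Rrm2, the regulated subunit of ribonucleotide reductase, had the largest ratio to d0 among S phase genes. It had 90.5, 173, 158, 112, 108, 142 and 109.9, with d1 1.91-fold above d0, and d3 and d10 were the next highest. Rrm1, the large subunit, had 662, 620.3, 627, 701, 630.1, 810.4 and 662, so d10 alone stood out. Pcna had 933, 1014, 763, 679, 653, 729 and 672. It was the only member with 5 of 6 later days lower than d0 by 0.29 or more. The other row annotated as Pcna gave 582.6 at d7 and 836.5 at d0, also lower at d7. Tk1, a thymidine kinase, had 199, 212, 227, 212, 215, 197 and 212, with d3 highest, while its other row, at 154.9 on 4 arrays, was highest at d3 too. Tyms, thymidylate synthase, ranged from 98.6 at d14 to 135 at d1. Ccnd1 had 276, 847, 578, 542, 584, 541 and 449. At d1 it was 3.07-fold above d0, the largest ratio of any member on any day. Ccne1, cyclin E1, had 134, 143, 155, 154, 152, 179 and 136, with d10 highest.

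The 2 classes were set side by side at d3. Against d0, the 26 mitosis genes had a median of 0.38, the 11 S phase genes 0.17 and all genes 0.04. At least 1.5-fold above d0 were 7 of 26 mitosis genes, 1 of 11 S phase genes (Rrm2) and Ccnd1, against 1.21% of all genes. Against the mean of d1 and d5, the medians were 0.14 for mitosis genes and -0.02 for S phase genes, with 24 of 26 and 5 of 11 genes higher (51.7% of all genes, median 0.00). Only Mki67 was at least 1.5-fold above those neighbours (0.105% of all genes), and with equal array medians it was not. In 19 of 26 mitosis genes and in 1 of 11 S phase genes, d3 exceeded the mean of d1 and d5 by more than these 2 days differed (21.4% of all genes). The difference between the class medians was 0.21 against d0, but 0.022 against d14 and 0.041 against the mean of d5, d7 and d14, so its size at d3 depends on the day it is set against. Over d1 and d5 it was 0.16.

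At d10, the medians against d0 were 0.37 for mitosis genes, 0.12 for S phase genes and 0.03 for all genes. At least 1.5-fold above d0 were 9 of 26 mitosis genes, Rrm2 of the S phase genes and Ccnd1, against 1.64% of all genes. Against d7 and d14 the medians were 0.26 for mitosis genes and 0.13 for S phase genes, with 20 of 26 and 7 of 11 genes higher (43.5% of all genes, median -0.01). At or above the median level by mean, 5 of 5 mitosis and 3 of 7 S phase genes were higher, against 59.5% of all genes there. Of the members, 6 were at least 1.5-fold above d7 and d14 (0.527% of all genes), namely Ccna2, Mki67, Top2a, Kif11, Ccnb2 and Nusap1. All 6 are of the G2 and mitosis class, in which Ccna2, a cyclin of S phase and G2, was counted. The d10 value exceeded the mean of d7 and d14 by more than these 2 days differed in 18 of 26 mitosis genes and 6 of 11 S phase genes (23.5% of all genes). Against d14 the difference between the class medians was 0.11, and 0.15 against the mean of d5, d7 and d14, in place of 0.25 against d0. Over d7 and d14 it was 0.13.

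**Figure D3:**
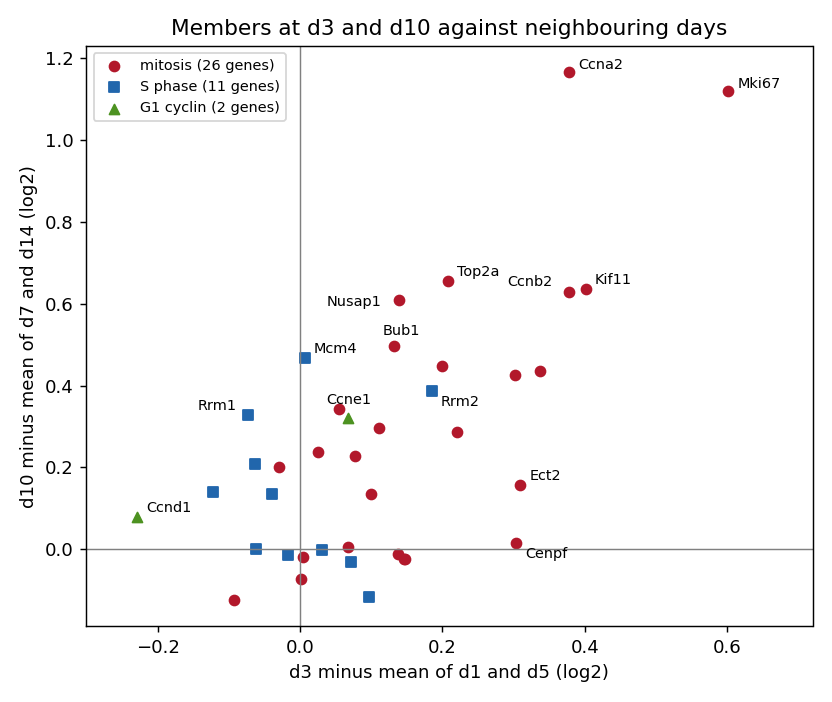
Each point is 1 member; the horizontal axis is d3 minus the mean of d1 and d5, the vertical axis d10 minus the mean of d7 and d14, on the log2 scale. Mki67 and Ccna2 lie farthest from 0 at d10, and the S phase genes (squares) lie between -0.12 and 0.19 at d3.

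The highest array was d10 for 16 of 26 mitosis genes and 1 of 11 S phase genes (15.2% of all genes), and d3 for 6 and 1 (9.34% of all genes). Of the 2 days, d10 was above d3 in 17 of 26 mitosis genes and 3 of 11 S phase genes (42.9% of all genes). The median of d10 minus d3 was 0.05 in mitosis genes and -0.08 in S phase genes. In mitosis genes it ran from -0.26 (Ect2) to 0.36 (Top2a). On the other days the mitosis genes had medians over d0 of 0.25 at d1, 0.28 at d5, 0.27 at d7 and 0.18 at d14. The d0 array was the lowest of the 7 for 19 of 26 mitosis genes and 4 of 11 S phase genes, and for 31.7% of all genes. S phase genes had medians of 0.29 at d1, 0.09 at d5, 0.08 at d7 and 0.01 at d14. At least 1.5-fold above d0 at d1 were 3 mitosis genes (Plk1, Ccna2 and Mki67), Rrm2 and Ccnd1 (2.19% of all genes). The d7 and d14 arrays differed by a median of 0.11, sign set aside, over mitosis genes and 0.08 over all genes.

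On the days not yet given, Ccna2, Plk1, Prc1, Mki67 and Ccnd1 were at least 1.5-fold above d0 at d5 (0.958% of all genes). Plk1 and Ccnd1 alone were so at d7 (1.66% of all genes) and at d14 (0.532% of all genes). A 2-fold threshold left Plk1 and Ccnd1 at d1 (0.411% of all genes), and these with Ccna2 and Mki67 at d3 (0.256%). At d10 it left Ccna2, Plk1, Kif11 and Mki67 (0.316%), and at d7 Plk1 and Ccnd1 (0.125%). No member passed it at d5 (0.11%) or d14 (0.0401%). Against neighbouring days none passed it at d3 (0.015%), and Ccna2 and Mki67 did at d10 (0.145%). With d14 in place of d0, 4 members were at least 1.5-fold higher at d1 (1.06%), 3 at d3 (0.537%) and 6 at d10 (0.552%), those at d3 and d10 all of mitosis. With the mean of d5, d7 and d14 in its place, there were 3 at d1 (0.823%), 2 at d3 (0.211%) and 4 at d10 (0.421%).

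No member was 1.5-fold or more below d0 on any day, Pcna included. Of all genes, 3.89% were on d1, 3.32% on d3, 3.49% on d5, 3.36% on d7, 4.32% on d10 and 3.37% on d14. None was that far below its neighbouring days at d3 (0.0351% of all genes) or d10 (0.361%).

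Many members lay under the array median. At or above the array median were 11 of 39 members at d0, 17 at d1, 16 at d3, 13 each at d5 and d7, 17 at d10 and 13 at d14, while 54.8% to 57.9% of all genes were. At d3 these were 6 of 26 mitosis genes and 8 of 11 S phase genes, and at d10 they were 7 and 8. By their mean over the 7 arrays 14 members reached the median: Ccnb2, Ccna2, Aurka, Aurkb and Mki67 of mitosis, 7 S phase genes, Ccnd1 and Ccne1. Of the 39 members, 19 were below the median on all arrays and 10 above it on all. The 5 mitosis genes at or above it had medians of 0.38 at d3 and 0.63 at d10 over the neighbouring days, and all 5 had d3 and d10 on top (3.43% of all genes at that level). The 21 below it had 0.14 and 0.23, and 8 of them had that course. In 9 of the 39 members at least 3 arrays held exactly 1 value, as in 36.5% of all genes.

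**Figure D4:**
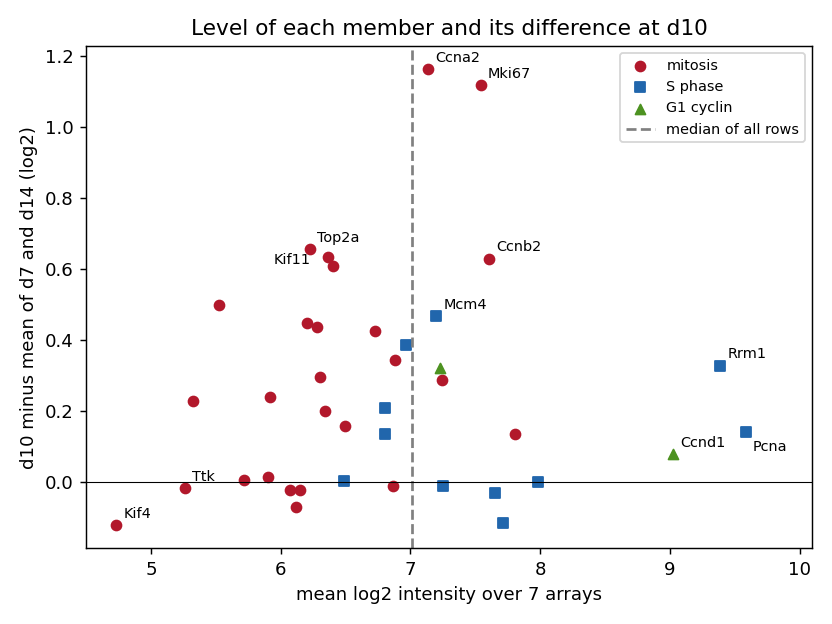
Mean log2 intensity of each member over the 7 arrays against its log2 difference at d10 from d7 and d14, with the median of all rows dashed. Most mitosis genes lie left of the dashed line, and Ccna2, Mki67 and Ccnb2 lie right of it and above 0.6.

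Other genes of the cell cycle were read from lists chosen with earlier results known. Of 36 other mitosis genes, 7 had d3 and d10 on top (2.67% of all genes), and their medians over the neighbouring days were 0.07 at d3 and 0.03 at d10. Mad2l1, the checkpoint protein Mad2, had 162, 203, 235, 194, 169, 271 and 171, and was the only one of the 36 at least 1.5-fold above its neighbours at d10. The condensin subunit Smc4 differed from d7 and d14 by 0.54 at d10, and Cdca3 was highest at d3, 0.47 above d1 and d5. Of 36 other replication genes, 4 had d3 and d10 on top, 12 were highest at d3 (9.34% of all genes) and 7 were highest at d1, which is 19.4% of them and also 19.4% of all genes. Their medians over the neighbouring days were 0.01 at d3 and 0.03 at d10. The 8 other G1 cyclins and kinases had medians over d0 of 0.24 at d3 and 0.40 at d10. Over the neighbouring days these were 0.01 and 0.17, with all 8 higher at d10 (43.5% of all genes), and Ccne2, cyclin E2, differed by 0.35 there. All 8 lay at or above the median level by mean, where 59.5% of genes were higher at d10. Cyclin-dependent kinase inhibitors and other brakes lay near 0, with medians of -0.02 and 0.06 over 14 genes. CHR letters were found in 22 of 28 other mitosis genes and 8 of 32 other replication genes with a promoter, and E2F letters in 3 and 13.

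Markers of other cells were read on the same arrays. Of 16 neutrophil granule and marrow precursor genes, 9 had d3 and d10 on top (2.67% of all genes). Their summed intensity was 4860.3 at d3 and 10146 at d10, against 2044 to 3732 on the other days. Ngp, a granule protein made by maturing neutrophils, had 200.1, 577, 1081, 369, 401, 2205 and 309. At d3, Ngp and Lcn2 (1446.5, against 818.2 at d1) were large parts of the summed intensity. The median log2 ratio over d0 of the 16 genes was 0.61 at d1, 0.57 at d3 and 1.77 at d10. Of 11 red cell precursor genes 7 had that course, with summed intensities of 4532 at d3 and 4566 at d10, against 3389 to 3964 on the other days. Slc4a1, the red cell anion exchanger, had 302, 395, 533, 325, 368, 717 and 319. Tfrc and Alas2, named after their values were seen, are large parts of that sum and did not have the course. Tfrc had 618, 1012.5, 1483, 1408, 1279, 1100 and 871. Alas2 had 1486, 1340.5, 1324, 887, 1266, 1316 and 1408, and was lower than d0 on all later days. Genes of early granulocytes, named after their values were seen, varied: at d10 the proteins of primary granules Mpo, Elane, Ctsg and Prtn3 differed from d7 and d14 by 1.46, 1.28, 0.54 and -0.10, and Ms4a3 by 0.07. At d3 these 5 genes differed from d1 and d5 by -0.30 (Mpo) to 0.14 (Ms4a3). The part of such cells in the mitosis values was not tested.

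Markers of other cells of the muscle were read in the same way. None of 10 satellite cell and myogenic genes had d3 and d10 on top, and 8 of the 10 were highest at d1 (19.4% of all genes). Of the 10, 9 lay at or above the median level by mean, where d1 was highest in 3335 of 11351 genes. The summed intensity of all 10 was 20519 at d1 and 17122 to 18262 on the other days. Des (12391 at d0, 12440 at d1) and Myf6 (3345 and 4686.5) made up most of that sum. Pax7 and Myf5, named like Des after their values were seen, were not highest at d1. Pax7 stood at 183.8 at d0, 182.7 at d1 and 210.1 at d7, and Myf5 at 144.9 at both d0 and d1. Myog, a factor of myoblast differentiation, had 105, 165, 121, 92.7, 114, 83.9 and 103. Macrophage genes had 1 of 15 with d3 and d10 on top and 8 of 15 highest at d1, with a sum of 7266 at d1, 6960.0 at d3 and 5820.1 at d10, against 4373 at d14. Macrophage genes had a median of 0.26 at d10 over d7 and d14, with 13 of 15 higher, and fibroblast genes 0.23, with 9 of 10 higher (43.5% of all genes). By mean, 10 of the 15 macrophage and all 10 fibroblast genes lay at or above the median level, where 59.5% of genes were higher. At d3 over d1 and d5 the medians of macrophage and fibroblast genes were 0.00 and 0.06. The d3 and d10 course (2.67% of all genes) was seen in 3 of 10 endothelial genes, 1 of 10 fibroblast genes (Tnc), 2 of 11 lymphocyte genes and none of 10 muscle fibre genes. The part of these cells in the mitosis values was not tested either. Postn, a matrix protein of fibroblasts, was higher than its neighbours by 0.66 at d3 and 0.63 at d10.

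**Figure D5:**
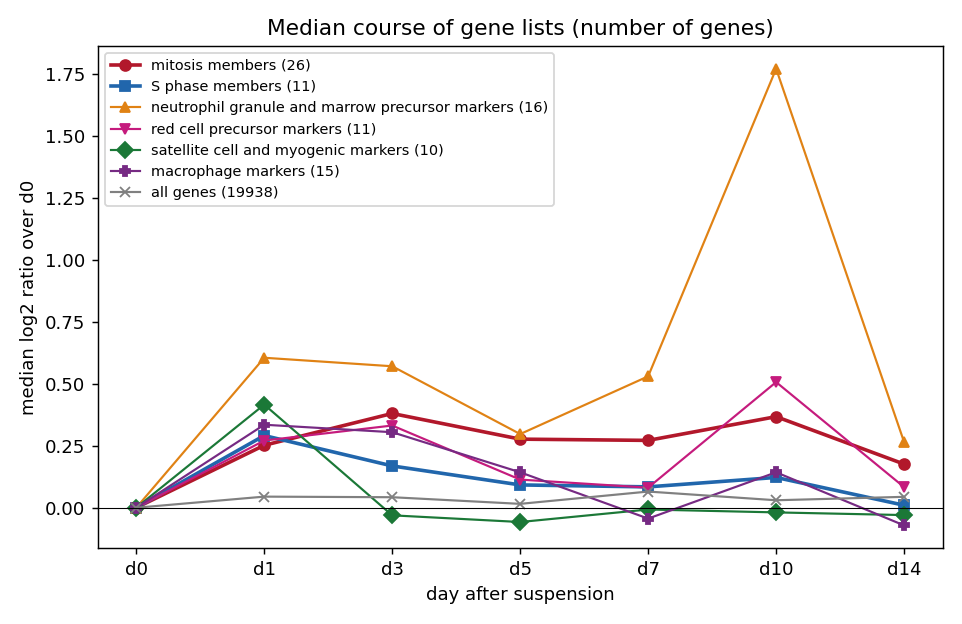
Median log2 ratio over d0 of each gene list on each day, with d0 set to 0. The medians of neutrophil and red cell precursor markers have their maximum at d10. That of satellite cell and myogenic markers has it at d1, where Pax7 and Myf5 were not highest. Mitosis genes are highest at d3 and d10, and all genes stay between 0.02 and 0.07 after d0.

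Whether members climbed or declined steadily was tested by a limma fit on log2(day + 1) across all 19938 genes. At a limma adjusted p of 0.05 no member was called, and 0% of all genes were. At an unadjusted p of 0.05, Birc5 and Plk1 had a positive slope (6.85% of all genes did) and Pcna a negative one (4.46% of all genes). The slope per doubling of day + 1 was -0.15 ± 0.0363 (SE) for Pcna, with a limma adjusted p of 0.395. Plk1 had 0.21 ± 0.08 and a limma adjusted p of 0.417. A course with maxima at d3 and d10 is not a straight line, and this fit does not describe it.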

How the data were processed

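Left plantaris RNA, pooled from 6 animals per day, was hybridised to Affymetrix Mouse Gene 1.0 ST arrays, per the labels' protocols. The table the authors deposited holds linear intensity values, not log2 values, in 35556 rows for 7 arrays. The software was Partek, per the submitters' processing notes. How background was corrected, values normalized and probes summarized, and on which build, is not given in the sources used here. Platform annotation gave 1 symbol for 21789 rows and several for 1621 rows, which were not used to name genes. Values were put on the log2 scale with no pseudocount, and the highest row by mean was kept per gene, 19938 genes in all. A gene was counted as called past 1.5-fold. There is 1 array a day, so no difference between days was tested. The trend was fitted with limma 3.58.1 in R 4.3.3, with Benjamini-Hochberg adjustment over all genes, and tested on simulated data. Other steps used Python 3.11.15, numpy 2.4.6 and pandas 2.3.3, and figures matplotlib 3.10.9. The members, the other gene lists, the motif letters and the course with d3 and d10 on top were chosen with earlier results of these data known. All members could be named, and up to 4 genes of each other list, those with the largest ratio at d3 or d10 against the neighbouring days; exceptions are stated as such. Alternatives were a pseudocount of 32, equal array medians, quantile normalization, averaging a gene's rows, a filter on mean level, a 2-fold threshold, other days to compare with, the rank of the day and each array left out. Leaving out arrays from the counts of highest arrays was chosen after seeing the data. Promoter sequences are from RefSeq, GRCm38.p6.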

Additional observations from a re-analysis of the deposited data

How the results depend on the processing

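Of 118 alternative values, 75 stayed within 1.5 times the reported value and 43 moved by more. Most are counts, which have no sign, and no difference between class medians turned its sign. The 75 include the trend counts of 0. They also include the counts of highest arrays with 1 array left out, which could not fall. At a 2-fold threshold, 4 members were higher than d0 at d3 and at d10, 2 were at d1, and 0 at d5 and d14, and over the neighbouring days there were 0 at d3 and 2 at d10. With d14 in place of d0, 6 members at d10, 3 at d3, 1 at d5 and 0 at d7 were at least 1.5-fold higher, and mitosis minus S phase medians were 0.022 at d3 and 0.11 at d10. With the mean of d5, d7 and d14 in place of d0, the counts were 3 at d1, 2 at d3 and 4 at d10, and the medians differed by 0.041 at d3 and 0.15 at d10. A pseudocount of 32 gave 3 members at d1, 3 at d5 and 7 at d10 over d0, and 0 at d3 and 2 at d10 over the neighbours. The medians then differed by 0.14 at d3 and 0.14 at d10 over d0, and by 0.083 at d10 over the neighbours. Among the 14 members at or above the median level, counts over d0 were 3 on d1, 5 on d3, 3 on d5, 1 on d7, 4 on d10 and 1 on d14, with 3 at d10 over the neighbours. Of the 11351 genes at that level, 398 were so on d1, 189 on d3, 154 on d5, 169 on d7, 244 on d10 and 77 on d14, and 69 over the neighbours of d10. Of these 14, 6 had d3 and d10 highest (389 of the 11351 genes) and 6 had d1 highest (3335 of the 11351). Their medians differed by 0.67 at d3 and 0.77 at d10 over d0, and by 0.37 at d3 and 0.63 at d10 over the neighbours. Fewer genes enter there. Quantile normalization gave 8 members at d1 over d0 and a difference of 0.20 at d10 over the neighbours, and equal array medians gave 0 members at d3 over the neighbours. At the 25th percentile of all rows in place of the median, which most rows pass by definition, 34 members passed by mean level. Shares of all genes were not counted under quantile normalization, equal array medians, averaged rows or a pseudocount of 32. Nor were they at d5 and d7 with d14 in place of d0. Whether those counts of members exceed the share of all genes is therefore not shown. Where no reason is given, the cause was not tested. With 1 array left out in turn, the count of members with d3 and d10 highest lay between 14 and 18, and that with d1 highest between 11 and 12. Neither of these counts can fall when another array is left out. The members called by limma for a trend stayed at 0. At an unadjusted limma p of 0.05, 8 of 39 members had a negative slope without d0 (858 of all 19938 genes) and 9 a positive one without d14 (1348 of all genes). No paired analysis was possible because each day has 1 array. The low intensity of most mitosis genes, 21 of 26 under the median level, limits what their differences can show.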
